A study of Mus musculus with 6 samples.

Results

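The genes described are the enzymes and proteins that write, erase and read DNA methylation, measured in the whole brain of newborn mice given testosterone propionate. The members are 9 genes, namely the writers Dnmt1, Dnmt3a and Dnmt3b, the erasers Tet1, Tet2 and Tet3, and the readers Mbd1, Mbd2 and Mbd3. Every probe set that the array annotation pairs with exactly 1 of these genes was taken, which gave 25 probe sets of the 34945 single-gene probe sets and 18193 genes on the array. Dnmt3a and Mbd1 have 5 probe sets each, Tet1 has 4, Dnmt1 has 3, Dnmt3b, Tet2 and Mbd2 have 2 each, and Tet3 and Mbd3 have 1 each. The rule uses gene function and no measured value, although the genes were picked with earlier results of these data known.

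Testosterone propionate (TP) is an ester of testosterone that is given to newborn female rodents to masculinise the brain during its period of sexual differentiation. The study asked which genes of the whole brain respond to it. Its 6 Affymetrix arrays fall into 4 groups of C57BL/6 mice, each array with RNA pooled from 6 animals. The groups are 2 arrays of females given TP, 2 of females given vehicle, 1 of males given TP and 1 of males given vehicle. Animals received 1 mg TP in 20 µL sesame oil into the peritoneum on postnatal day 2, or the same volume of oil alone, and brains were collected on day 6. Each female group has an original and a replica array, and nothing in the labels says that the replica was a separate pool of mice. The p-values therefore speak only of array-to-array spread, part of which could be technical. The values are RMA expression levels on a log2 scale.

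DNA methyltransferases place a methyl group on the cytosine of CpG dinucleotides. Dnmt1 copies existing methylation onto the new strand after replication, while Dnmt3a and Dnmt3b methylate sites anew, and Dnmt3a is known as the main such enzyme of postnatal neurons. Tet enzymes oxidise the methyl group as a step toward its removal, and brain tissue is known for its high content of the first oxidation product. Methyl-CpG binding domain (MBD) proteins recruit repressor complexes, Mbd2 and Mbd3 being alternative subunits of the nucleosome remodelling and deacetylase (NuRD) complex.

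The array labels were checked first with sex-linked genes. Eif2s3y, a Y-linked gene, lay at 9.12 log2 units on the male TP array and 9.16 on the male vehicle array, against 2.84 to 3.10 on the female arrays. Xist, the RNA of the inactive X chromosome, lay at 12.81 and 12.83 on the female TP arrays and at 12.71 and 12.61 on the female vehicle arrays. The array labelled male TP had 10.45 for Xist, against 5.29 on the male vehicle array. The array labelled male TP therefore carried Xist RNA at a level that goes against its label, besides a high level of the pituitary hormone gene Gh, which read 8.55 on the male TP array and 5.71 on the male vehicle array. Differences over both sexes and between the sexes use this array. Without it, those over both sexes come down to the female differences, and those between the sexes are given a second time. These second sex differences set the male vehicle array alone against the female vehicle arrays. The SD over all single-gene probe sets of the difference within a pair was 0.14 for the female TP arrays, 0.18 for the female vehicle arrays and 0.20 between the male TP and male vehicle arrays. Over the 25 member probe sets the within-pair SD was 0.10 for female TP and 0.12 for female vehicle. That is the spread of a difference between single arrays, wider than that of a difference between group means. The SD between female replicate arrays over the members was 0.08. Differences near these sizes cannot be told from array spread.

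No member probe set passed an adjusted p under 0.05 in any comparison. Directions below are therefore given as values, with the limma standard error (SE) or 95% interval, and with whether the arrays of one group all lay beyond those of the other. Of the 25 member probe sets, 4 were dim, meaning that their mean lay below the 40th percentile of all single-gene probe sets (5.49 log2 units): Tet1 1419897_at and Mbd1 1430837_a_at, 1430838_x_at and 1453678_at. The other 21 were not dim, and all 25 were kept and tested. The brightest probe set of a gene is the one with the highest mean over the 6 arrays, and levels were not compared between probe sets.

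Several members are transcribed from more than 1 start, and which transcripts each probe set reads was not examined here. The mouse Dnmt1 gene is known to use an upstream start in oocytes and a downstream start in somatic cells, and Dnmt3a a first start for its long form and an internal one for its short form. RefSeq promoter windows, each 300 bases around a transcription start, on mouse assembly GRCm38.p6 were found for 7 of the 9 members, 11 windows in all. The first and last of the 3 Dnmt1 starts lie 7.26 kb apart, and those of the 3 Dnmt3a starts 84.8 kb apart. The outer windows of both genes are shown here because these genes have probe sets that disagreed in direction. A link between the starts and those directions was not tested. Each CpG, the methylated dinucleotide itself, is in capitals.
Dnmt1, upstream start, chr9:20959839-20960138, minus strand: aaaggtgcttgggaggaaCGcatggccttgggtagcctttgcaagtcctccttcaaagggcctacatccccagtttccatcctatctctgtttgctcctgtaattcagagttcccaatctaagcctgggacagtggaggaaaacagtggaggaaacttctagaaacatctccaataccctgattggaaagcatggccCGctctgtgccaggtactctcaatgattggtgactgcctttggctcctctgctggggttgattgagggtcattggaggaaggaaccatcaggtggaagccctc
Dnmt1, downstream start, chr9:20952574-20952873, minus strand: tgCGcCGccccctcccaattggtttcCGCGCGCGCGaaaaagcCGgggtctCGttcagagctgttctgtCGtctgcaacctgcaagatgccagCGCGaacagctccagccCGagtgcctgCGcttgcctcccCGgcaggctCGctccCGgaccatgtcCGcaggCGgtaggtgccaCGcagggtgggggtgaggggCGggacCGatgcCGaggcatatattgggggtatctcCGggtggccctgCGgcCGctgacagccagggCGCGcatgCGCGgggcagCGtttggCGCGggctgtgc
Dnmt3a, upstream start, chr12:3806730-3807029, plus strand: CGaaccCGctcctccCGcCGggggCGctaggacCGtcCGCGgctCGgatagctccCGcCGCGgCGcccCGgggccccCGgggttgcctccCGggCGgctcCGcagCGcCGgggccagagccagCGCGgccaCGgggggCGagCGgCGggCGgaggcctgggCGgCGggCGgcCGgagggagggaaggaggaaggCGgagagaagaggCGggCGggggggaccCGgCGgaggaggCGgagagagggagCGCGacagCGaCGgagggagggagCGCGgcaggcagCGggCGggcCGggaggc
Dnmt3a, downstream start, chr12:3891494-3891793, plus strand: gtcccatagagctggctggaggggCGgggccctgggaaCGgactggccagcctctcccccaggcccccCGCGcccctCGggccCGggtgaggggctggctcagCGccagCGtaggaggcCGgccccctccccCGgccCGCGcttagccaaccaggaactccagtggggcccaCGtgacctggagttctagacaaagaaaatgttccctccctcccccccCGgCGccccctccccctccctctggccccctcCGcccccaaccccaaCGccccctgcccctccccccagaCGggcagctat

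The upstream Dnmt1 window holds 2 CpGs and the downstream one 33, while the Dnmt3a windows hold 46 at the upstream start and 18 at the downstream start. Across the 11 member windows the median was 22 CpGs, against 7 over all 32851 windows, and 7 member windows lay above the upper quartile of 20. Tet2 had the most, with 57. The windows were also searched on both strands for hormone receptor motifs. The androgen response palindrome (AGAACA and TGTTCT with any 3 bases between) was in 0 of 11 member windows and in 0.00913% of all windows, and the estrogen response palindrome (GGTCA and TGACC with any 3 bases between) was in 0 of 11 and in 0.07% of all. One arm of the androgen palindrome, AGAACA, was in 2 member windows (the downstream one of Dnmt1 and that of Tet2), against 19.0% of all windows. One arm of the estrogen palindrome, GGTCA, was in 4 member windows (the outer ones of Dnmt1 upstream and Dnmt3a downstream, and those of Dnmt3b and Tet1), against 40.5% of all windows. The arms overlap the palindromes by construction, and the absence of letters from these windows says nothing of the receptors. A GC box, GGGCGG, was in 9 of 11 member windows and in 35.7% of all windows.

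The first question was whether TP altered the writers in the female brain. Dnmt3b, a de novo methyltransferase, had the largest positive difference of any member. Its brightest probe set, 1449052_a_at, read 6.15 and 6.18 on the female TP arrays, against 5.96 and 5.89 on the female vehicle arrays. Both female TP arrays lay above both female vehicle arrays, and the difference of 0.24 (SE 0.08, 95% interval 0.05 to 0.43) corresponds to 1.18-fold. It did not pass after adjustment over all probe sets (limma adjusted p = 0.595). The other Dnmt3b probe set, 1418351_a_at, read 5.89 and 5.74 in female TP, against 5.61 and 5.70 in female vehicle, with a difference of 0.16 (limma adjusted p = 0.698), or 0.08 without the original female TP array. Both Dnmt3b probe sets thus separated the groups in the same direction without passing the test. A single member past an unadjusted p under 0.05 is no rare event here, since 7.83% of all single-gene probe sets were past it.

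Dnmt3a, whose protein methylates neuronal DNA after birth, was measured by 5 probe sets that did not all point the same way. The brightest, 1423063_at, read 10.53 and 10.68 in female TP, against 10.70 and 10.66 in female vehicle, a difference of -0.08 (95% interval -0.28 to 0.13). Its groups overlapped. The other 4 had positive differences of 0.13 to 0.17, all with 95% intervals that included 0. Of these, 1423065_at read 10.14 and 10.20 in female TP, against 10.01 and 9.98 in female vehicle, a difference of 0.17 (SE 0.08, limma adjusted p = 0.648). In 3 of those 4 both female TP arrays lay above both female vehicle arrays, the exception being 1423064_at, while the female groups did not overlap in 38.4% of all single-gene probe sets. A direction for Dnmt3a would therefore depend on the probe set chosen.

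Dnmt1, the maintenance methyltransferase, lay close to its vehicle level by all 3 probe sets. The brightest, 1435122_x_at, read 9.34 and 9.36 in female TP, against 9.37 and 9.43 in female vehicle, a difference of -0.05. The next, 1422946_a_at, read 9.11 and 9.13 in female TP, against 9.002 and 9.08 in female vehicle, a difference of 0.08. These probe sets separated the female groups in opposite directions. The 95% intervals of the 3 probe sets reached from -0.24 to 0.26. The suffix x_at marks probe sets in which some probes may also match other transcripts.

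**Figure D1:**
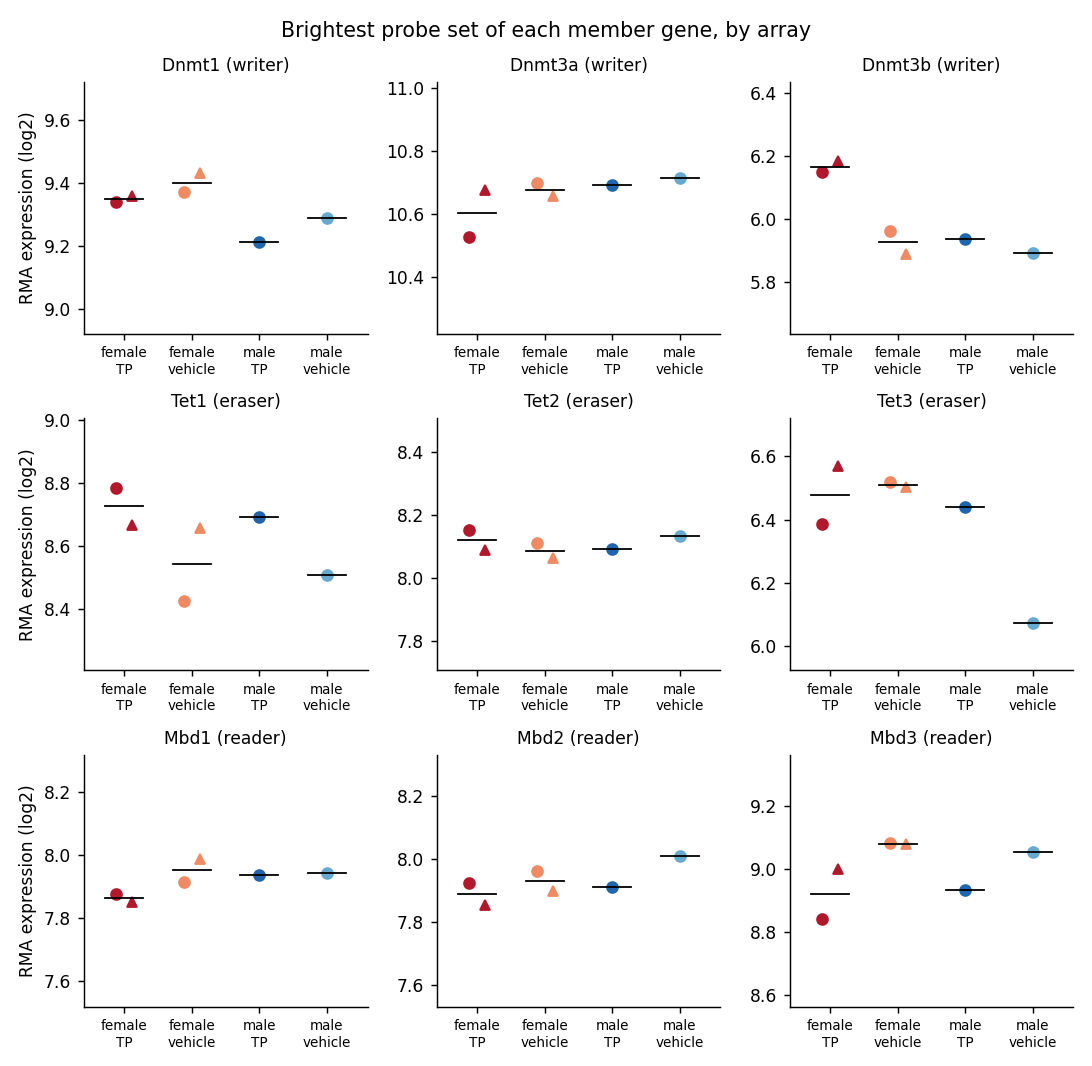
Level of the brightest probe set of each of the 9 member genes on every array, in log2 units, with circles for the first array of a group, triangles for the female replica arrays and horizontal bars for the group mean (the array itself in males). The Dnmt3b points of both female TP arrays, at 6.15 and 6.18, lie above those of the female vehicle arrays, at 5.96 and 5.89, and the Mbd3 points of female TP, at 8.84 and 8.999, lie below those of female vehicle, both at 9.08.

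Among the erasers, Tet1, which oxidises methylcytosine at CpG-rich promoters, had positive differences in females by all 4 of its probe sets. The brightest, 1455425_at, read 8.78 and 8.67 in female TP, against 8.43 and 8.66 in female vehicle, a difference of 0.18 (95% interval -0.07 to 0.43, limma adjusted p = 0.699). The groups did not overlap, but the lower female TP array and the higher female vehicle array were nearly equal. Without the original female vehicle array the difference was 0.07, and without the replica it was 0.30. The next, 1429448_s_at, read 8.25 and 8.35 in female TP, against 8.22 and 8.15 in female vehicle, a difference of 0.11. The remaining Tet1 probe sets, 1419896_at and 1419897_at, had differences of 0.03 and 0.06 with overlapping groups. Without the original female vehicle array they had -0.0033 and -0.04, in the same order. Without the replica female TP array 1419896_at had -0.019.

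Tet2, an eraser without a DNA-binding CXXC domain of its own, gave 2 readings of different size. The brightest probe set, 1455300_at, read 8.15 and 8.09 in female TP, against 8.11 and 8.06 in female vehicle, a difference of 0.03. It was also the steadiest member, with a range of 0.09 over all 6 arrays. The other, 1438781_at, read 7.56 and 7.58 in female TP, against 7.32 and 7.48 in female vehicle, a difference of 0.17 (limma adjusted p = 0.68), or 0.09 without the original female vehicle array. Only the second of these separated the female groups. Tet3, the eraser known from the oocyte and abundant in neurons, read 6.39 and 6.57 in female TP, against 6.52 and 6.50 in female vehicle. The difference was -0.03 and the groups overlapped.

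The readers mostly had small negative differences in females. Mbd3, which in mammals has lost most of its binding to methylated DNA and works within NuRD, read 8.84 and 8.999 in female TP, against 9.08 and 9.08 in female vehicle. Both female TP arrays were lower, by 0.16 on average (difference -0.16, 95% interval -0.37 to 0.05, limma adjusted p = 0.692). The Mbd3 difference was -0.08 without the original female TP array. Mbd2, the methyl-CpG binding subunit of NuRD, had differences of -0.04 for 1417165_at and -0.10 for 1425803_a_at. The brightest Mbd2 probe set, 1417165_at, read 7.92 and 7.85 in female TP, against 7.96 and 7.90 in female vehicle, and these overlapped.

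Mbd1, a reader that also holds CXXC zinc fingers, had differences between -0.09 and 0.02 in 4 of its 5 probe sets. The brightest, 1417968_a_at, read 7.88 and 7.85 in female TP, against 7.92 and 7.99 in female vehicle, a difference of -0.09. The remaining one, 1453678_at, read 2.94 and 2.78 in female TP, against 3.10 and 3.15 in female vehicle, a difference of -0.27 (limma adjusted p = 0.597). This is the largest negative difference of any member, and it comes from the dimmest member probe set, near the lowest values on the arrays of 2.11 to 2.20. The brighter Mbd1 probe sets had no difference of that size.

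In females 0 of 25 member probe sets were called, against 0.00572% of all single-gene probe sets (2 probe sets, of Ibsp and Krtap19-5), and 2 members were past an unadjusted p under 0.05, against 7.83% of all. The arrays of the female TP and female vehicle groups did not overlap in 14 of 25 member probe sets, against 38.4% of all. Of these, 9 were above (6 of writers, 3 of erasers and 0 of readers) and 5 below (1, 0 and 4). Differences were positive in 8 of 10 writer probe sets (median 0.14), in 6 of 7 eraser probe sets (median 0.06) and in 1 of 8 reader probe sets (median -0.06), while 44.5% of all probe sets were positive, with a median of -0.02. Taking only the brightest probe set of each gene, 3 of 9 were positive and the median was -0.04. Probe sets of 1 gene read RNA of the same gene, so their counts are not counts of independent genes.

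**Figure D2:**
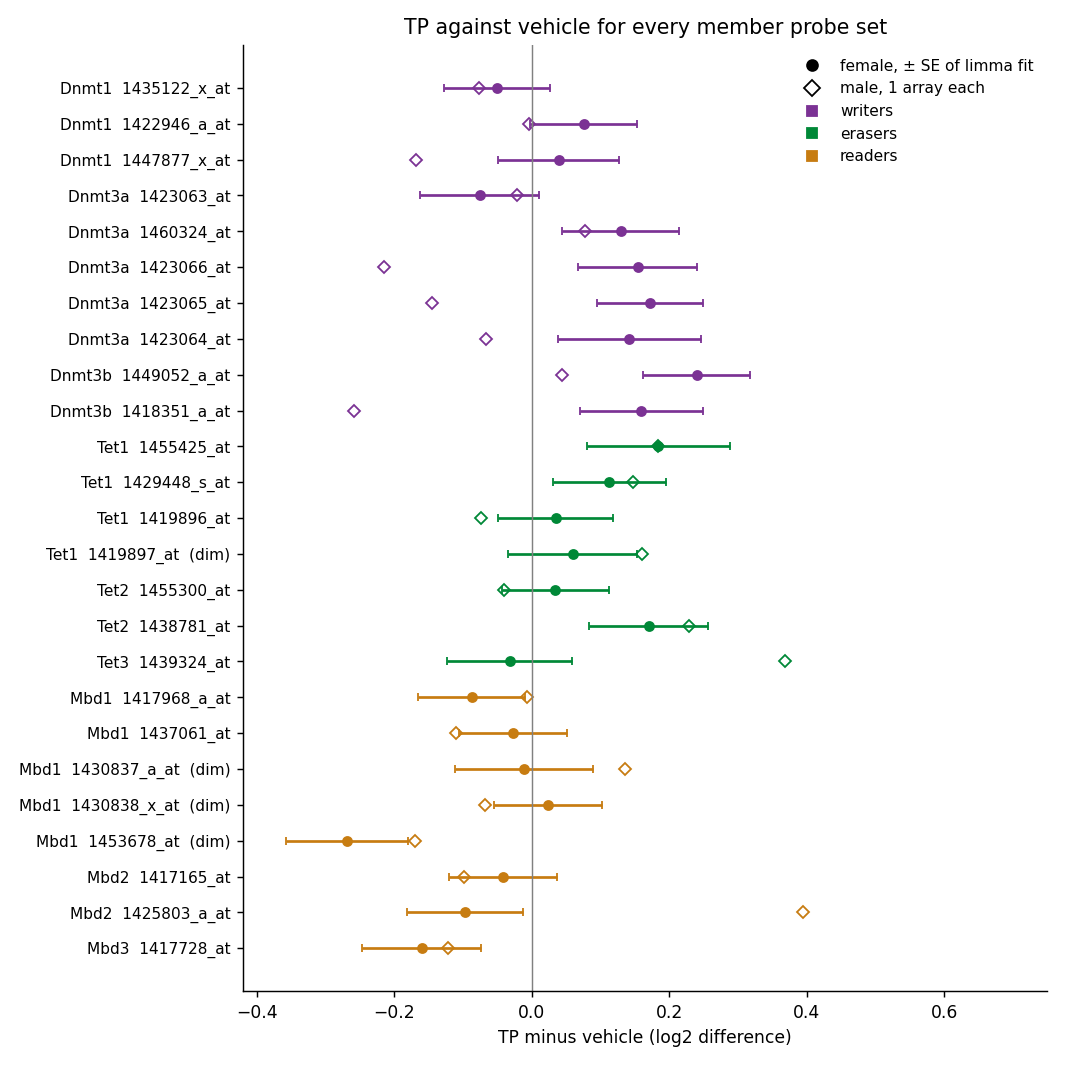
TP minus vehicle difference (log2) of all 25 member probe sets, with filled circles and bars for the female difference ± SE of the limma fit and open diamonds for the single male pair. Female differences run from -0.27 for a dim Mbd1 probe set to 0.24 for Dnmt3b, and male differences from -0.26 for Dnmt3b 1418351_a_at to 0.39 for Mbd2 1425803_a_at.

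The second comparison set TP against vehicle over both sexes, in an additive model of treatment and sex on all 6 arrays. Again 0 of 25 members were called, against 0% of all probe sets, and 4 members were past an unadjusted p under 0.05, against 12.3% of all. Tet2 1438781_at had the largest positive difference, with 7.56 and 7.58 in female TP and 7.51 in male TP, against 7.32 and 7.48 in female vehicle and 7.28 in male vehicle. All TP arrays lay above all vehicle arrays, by 0.19 on average (95% interval 0.03 to 0.34, limma adjusted p = 0.36). Tet1 1455425_at had a difference of 0.18 (limma adjusted p = 0.405), with 8.69 in male TP and 8.51 in male vehicle beside the female values above. Its TP arrays also all lay above its vehicle arrays.

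Dnmt3b 1449052_a_at had a difference of 0.17 over both sexes (limma adjusted p = 0.385), but the male arrays, at 5.94 with TP and 5.89 with vehicle, brought the groups into overlap. Mbd3 read 8.93 in male TP and 9.05 in male vehicle, so that every TP array lay below every vehicle array (difference -0.15, 95% interval -0.30 to 0.01, limma adjusted p = 0.422). The dim Mbd1 probe set 1453678_at read 3.01 in male TP and 3.18 in male vehicle, with a difference of -0.24 over both sexes (limma adjusted p = 0.316). TP and vehicle arrays did not overlap in 6 of 25 members, against 15.1% of all probe sets, 4 of them above (2 of Tet1, 1 of Tet2 and 1 of Dnmt3a) and 2 below (Mbd1 1453678_at and Mbd3). Without the male TP array these differences equal the female ones, which are 0.17 for Tet2 1438781_at, 0.18 for Tet1 1455425_at, 0.24 for Dnmt3b 1449052_a_at and -0.16 for Mbd3, and 0 members were called.

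The third question was whether the TP difference itself differed between the sexes. This contrast rests on the single male arrays, whose spread is taken from the female arrays, and it cannot be computed without the array labelled male TP. No member passed, with an adjusted p of 1 for all 25, against 0.02% of all probe sets called (those of Ibsp, Xist and Gh). Past an unadjusted p under 0.05 were 4 members, against 4.84% of all. Mbd2 1425803_a_at read 7.07 in male TP and 6.67 in male vehicle, a male difference of 0.39 against -0.10 in females. The contrast was 0.49 (95% interval 0.14 to 0.85, limma adjusted p = 1), while the brighter Mbd2 probe set gave -0.06. Tet3 read 6.44 in male TP and 6.07 in male vehicle, a contrast of 0.40 (limma adjusted p = 1).

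For Mbd2 1425803_a_at and Tet3, the male vehicle array was the lowest of all 6 arrays, so the contrast turns on 1 array. Dnmt3b 1418351_a_at read 5.52 in male TP and 5.78 in male vehicle, a contrast of -0.42 (limma adjusted p = 1). Dnmt3a 1423066_at read 10.05 in male TP and 10.26 in male vehicle, a contrast of -0.37 (limma adjusted p = 1). In both, the female difference was positive and the male difference negative. Of the 10 writer probe sets, 9 had a negative contrast (median -0.20), with the brightest Dnmt3a probe set the exception at 0.05. Over all 34945 single-gene probe sets 17902 were negative (median -0.0048). The 10 come from Dnmt1, Dnmt3a and Dnmt3b alone, and all rest on the same single male arrays. The remaining brightest probe sets differed little in the male pair. Dnmt3a 1423063_at read 10.69 in male TP and 10.71 in male vehicle, Tet2 1455300_at 8.09 in male TP and 8.13 in male vehicle, Mbd1 1417968_a_at 7.94 on both, and Mbd2 1417165_at 7.91 in male TP and 8.01 in male vehicle. The untested male pair itself had positive differences in 2 of 10 writer, 5 of 7 eraser and 2 of 8 reader probe sets, against 43.7% of all probe sets. Pituitary markers, of which 4 of 7 were dim, were higher as values in male TP in 5 of 7 genes. Their list mean was 5.55 in male TP and 4.72 in male vehicle, beside 4.65 to 4.73 in female TP and 4.61 to 4.96 in female vehicle. Their part in the male values was not tested.

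**Figure D3:**
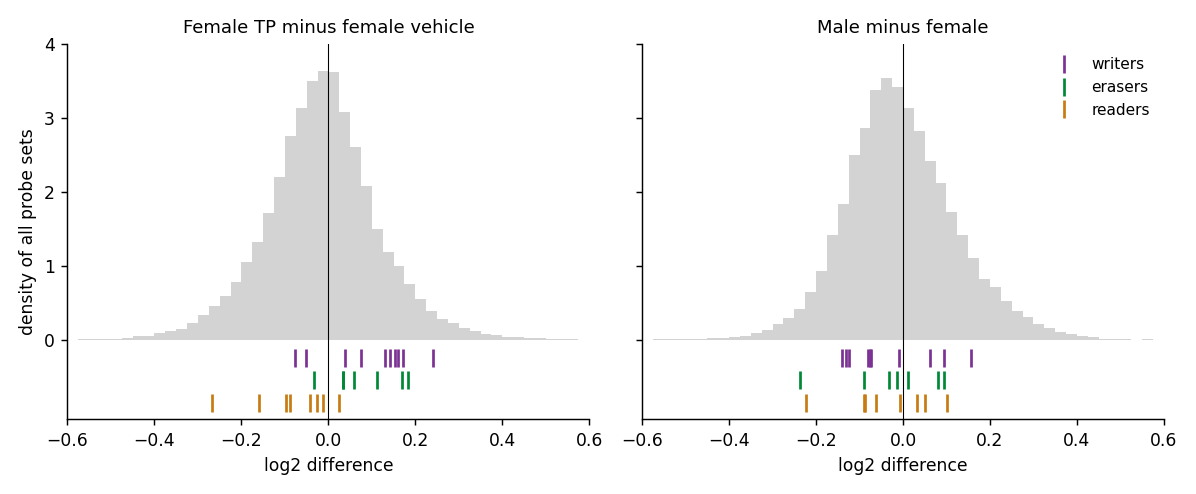
Log2 differences of the member probe sets, drawn as ticks by role, beneath the distribution over all 34945 single-gene probe sets, for female TP minus female vehicle and for male minus female, with values beyond the axis limits left out. Member differences run from -0.27 to 0.24 with a median of 0.03 in the female comparison and from -0.24 to 0.16 with a median of -0.03 in the sex comparison.

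The fourth comparison set males against females, with treatment in the model. Dnmt1 was the only member in which more than 1 probe set separated the sexes, while 20.4% of all single-gene probe sets did so. Its 1422946_a_at read 8.94 in male TP and 8.94 in male vehicle, against 9.11 and 9.13 in female TP and 9.002 and 9.08 in female vehicle. Both male arrays lay below all female arrays, by 0.14 on average (difference -0.14, 95% interval -0.29 to 0.01, limma adjusted p = 0.426). Its 1435122_x_at read 9.21 in male TP and 9.29 in male vehicle, below all female arrays, with a difference of -0.12 (limma adjusted p = 0.452). The third Dnmt1 probe set had -0.08 with overlapping groups. Without the array labelled male TP these differences were -0.10, -0.11 and 0.03, in the same order. They then rest on the male vehicle array alone, set against the female vehicle arrays.

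Tet3 had the largest sex difference of any member, -0.24 (95% interval -0.48 to 0.00, limma adjusted p = 0.408), but it rested on the male vehicle array, being -0.44 without the male TP array and -0.04 without the male vehicle array. For Dnmt3a, 1423064_at read 6.58 in male TP and 6.65 in male vehicle, against 6.50 and 6.56 in female TP and 6.51 and 6.26 in female vehicle. The difference was 0.16, or 0.26 without the male TP array and 0.05 without the male vehicle array, and the other 4 Dnmt3a probe sets overlapped. Without the male TP array, Dnmt3a 1423065_at had 0.25 in place of 0.09, and Mbd2 1425803_a_at had -0.47 in place of -0.22. Of the 25 sex differences 16 were negative, against 19092 of all 34945 single-gene probe sets. Without the male TP array 14 were negative, against 53.7% of all. In all, 0 of 25 members were called, against 0.0114% of all probe sets (those of the Y-linked genes Eif2s3y, Uty and Kdm5d), and 0 members were past an unadjusted p under 0.05, against 12.5% of all. The male and female arrays did not overlap in 3 members, 2 of them Dnmt1 probe sets, against 20.4% of all.

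Dnmt1 works at the replication fork. Of the 12 measured partners of the writers, 9 had negative sex differences and 3 positive ones (median -0.08), the lowest being Uhrf1 and Pcna. The cycling-cell markers had negative sex differences as well. Uhrf1, which recruits Dnmt1 to hemimethylated DNA, read 7.11 in male TP and 7.21 in male vehicle, against 7.38 and 7.47 in female TP and 7.63 and 7.69 in female vehicle. Its sex difference was -0.38 (limma adjusted p = 0.296), and its TP difference in females was -0.24 (limma adjusted p = 0.603). Both male arrays lay below all female arrays for Uhrf1, and the female TP arrays lay below the female vehicle arrays. Pcna, the sliding clamp of replication, read 11.58 in male TP and 11.60 in male vehicle, against 11.78 and 11.84 in female TP and 11.82 and 11.85 in female vehicle, a sex difference of -0.23 (limma adjusted p = 0.301). Without the male TP array the sex differences were -0.45 for Uhrf1 and -0.24 for Pcna.

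The list of cycling progenitor markers had negative sex differences in 9 of 9 measured genes (median -0.28, 7 with groups apart), and none passed the test. Over the brightest probe sets of all genes 58.5% of sex differences were negative (median -0.02). The sexes did not overlap in 20.4% of all single-gene probe sets. Its mean level was 7.79 in male TP and 7.85 in male vehicle, against 8.05 to 8.07 in female TP and 8.13 to 8.14 in female vehicle. Cerebellar markers were also lower in males in 8 of 8 genes as values (median -0.25), with a mean of 8.73 on both male arrays against 8.98 to 9.02 on the female arrays. Neutrophil and leukocyte markers were higher as values in 8 of 8 genes (median 0.30), 6 of them dim, with means of 5.01 to 5.32 in males against 4.76 to 4.92 in females. In pooled tissue, fewer cells of a type and less RNA per cell cannot be told apart. Without the male TP array only the male vehicle array is left for males. The medians were then -0.28 for cycling, -0.30 for cerebellar and 0.39 for neutrophil and leukocyte markers. Each of these lists kept the same direction in every gene. The part of these marker levels in the Dnmt1 values was not tested.

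**Figure D4:**
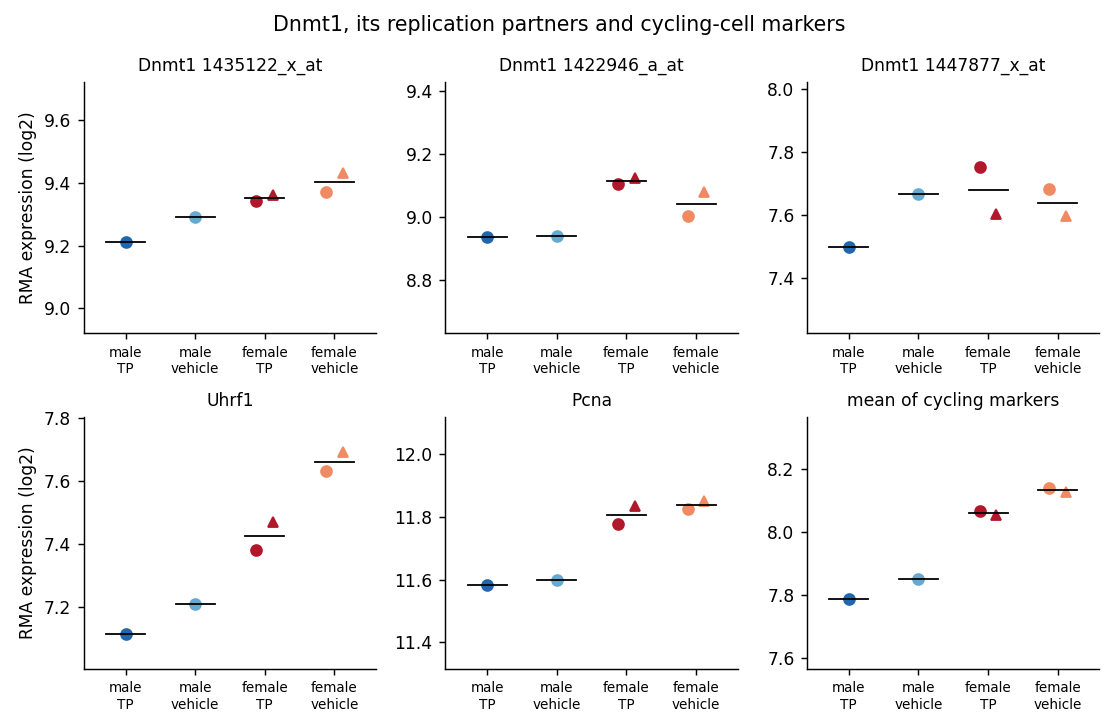
Level in log2 units on every array of the 3 Dnmt1 probe sets, Uhrf1 and Pcna and the mean level of the cycling progenitor markers, with circles for the first array of a group, triangles for the female replica arrays and bars for the group mean. Both male arrays lie below the 4 female arrays in every panel except that of Dnmt1 1447877_x_at, where male vehicle, at 7.67, lies among the female arrays.

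Marker lists were also read for treatment. Hindbrain and cord markers were the list with the largest TP difference, negative in 7 of 7 measured genes in females (median -0.28) and over both sexes (median -0.35), although no gene of it passed. The mean level of that list was 6.12 to 6.16 in female TP and 5.85 in male TP, against 6.37 to 6.46 in female vehicle and 6.35 in male vehicle. Endothelial markers had negative differences in 7 of 8 genes over both sexes (median -0.10), with means of 7.89 to 7.92 in female TP and 7.80 in male TP, against 7.97 to 7.98 in female vehicle and 7.995 in male vehicle. Neutrophil and leukocyte markers had negative differences in 7 of 8 genes over both sexes (median -0.11), with means of 4.76 to 4.88 in female TP and 5.01 in male TP, against 4.86 to 4.92 in female vehicle and 5.32 in male vehicle. Erythroid markers had positive differences in 4 of 6 genes (median 0.11), with means of 4.92 to 4.94 in female TP and 4.98 in male TP, against 4.80 to 4.85 in female vehicle and 4.90 in male vehicle. Cycling progenitor markers had negative TP differences in 8 of 9 genes in females (median -0.07) and in 8 of 9 over both sexes (median -0.06), and none passed. In the untested male pair 6 of 9 were negative (median -0.08). Dim genes made up 4 of 6 erythroid, 6 of 8 neutrophil and leukocyte, 3 of 7 hindbrain and cord and 1 of 8 endothelial markers. In females alone, as without the male TP array, the endothelial median was -0.06, with 7 of 8 genes negative. The neutrophil and leukocyte median was -0.03, with 5 of 8 negative, and the erythroid median 0.13, with 3 of 6 positive. Over the brightest probe sets of all genes, 62.1% of TP differences were negative over both sexes (median -0.03) and 59.2% in females (median -0.02). Neuron markers, which define the labelled tissue, stood at means of 12.29 to 12.32 on all arrays. The part of the tissue makeup in the TP values of the members was not tested.

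Around the members, 5 lists of partner genes were read, with 67 of 74 listed genes measured and the brightest probe set standing for each gene. None passed in any comparison, so that counts of genes higher or lower past the test were 0 in all 5 lists. In females 29 differences were positive and 38 negative, against 40.8% positive over the brightest probe sets of all genes. Between the sexes 51 of 67 were negative (median -0.07), against 58.5% of all genes (median -0.02). Without the male TP array, with male vehicle as the only male array, 50 were negative (median -0.05), against 56.7% of all genes. The part of the cycling markers in these sex differences was not tested.

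Among the partners of the writers, Hells, a chromatin remodeller needed for methylation of repeats, had the highest female difference, with 7.10 and 7.12 in female TP, against 6.82 and 6.998 in female vehicle. Its difference was 0.20 (SE 0.09, limma adjusted p = 0.657), and Uhrf2, a relative of Uhrf1, had 0.12. The lowest were Uhrf1 at -0.24 and Dmap1, a Dnmt1-binding protein, at -0.11. Between the sexes the highest was Dppa3 at 0.15, a dim gene known to protect methylation in the zygote, followed by Hells at 0.02. Dppa3 had 0.14 and Hells 0.15 without the male TP array.

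Among the repair and demethylation partners of the Tet enzymes, Gadd45a (0.15) and Ogt (0.13), the glycosyltransferase that binds Tet proteins, had the highest female differences. Ung, the uracil glycosylase, had -0.28 (limma adjusted p = 0.624) and Cxxc5, a CXXC protein, -0.20. Between the sexes Smug1, a glycosylase that also acts on oxidised pyrimidines, had -0.36 (limma adjusted p = 0.296) and Idh2, an enzyme that makes the Tet cofactor, -0.17, while Neil1, a base excision glycosylase, had 0.19. Smug1 had -0.26, Idh2 -0.17 and Neil1 0.22 without the male TP array. Over both sexes TP differences ran from -0.18 for the repair scaffold Xrcc1, which had -0.07 without the male TP array, to 0.13 for Gadd45a.

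The other methyl-CpG binding proteins varied little, from -0.11 for the dim Mbd3l1 to 0.13 for Zbtb38, a zinc finger reader, in females. Mbd6, an MBD family member, had the lowest sex difference of this list at -0.20 (limma adjusted p = 0.339), or -0.12 without the male TP array. In the NuRD and corepressor list, female differences ran from -0.13 for the scaffold Sin3a and -0.12 for Sin3b to 0.10 for the remodeller Chd3 and 0.13 for the deacetylase Hdac2. Sex differences there ran from -0.19 for Cdk2ap1 and -0.16 for Hdac1 to 0.05 for the dim Sall4, with 15 of 18 negative. Leaving out the male TP array gave -0.22 for Cdk2ap1, -0.15 for Hdac1 and 0.14 for Sall4, with 14 of 18 negative. In the methyl donor cycle, the folate-dependent methionine synthase Mtr had the highest TP difference, 0.22 in females and 0.24 over both sexes (limma adjusted p = 0.343), although it is dim, and its sex difference was -0.29, or -0.31 without the male TP array. Gnmt, a methyl-consuming enzyme of liver and dim here, had the lowest female difference at -0.22.

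**Figure D5:**
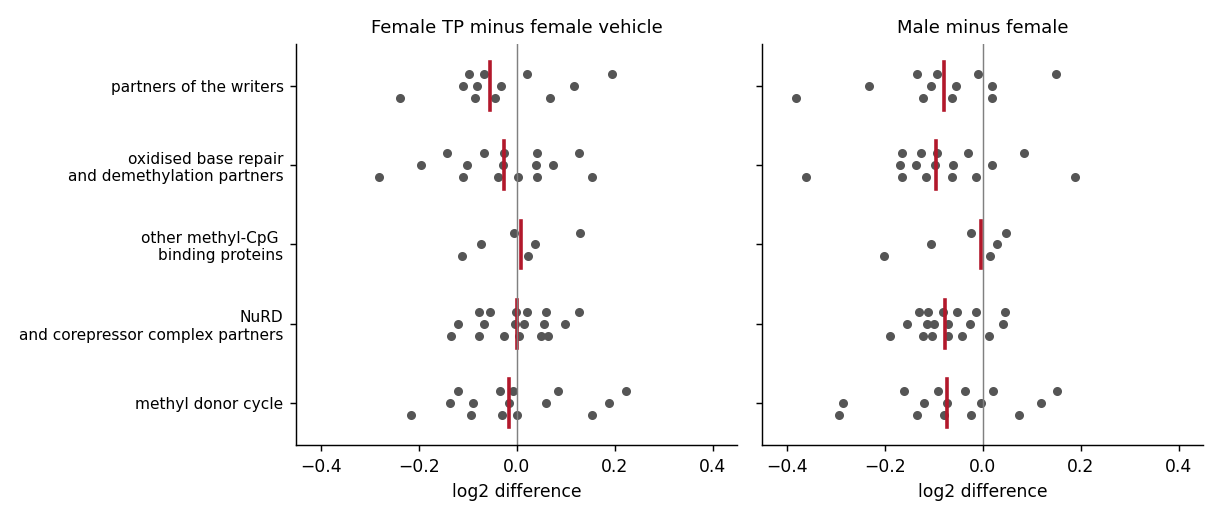
Log2 differences of the 67 measured partner genes in 5 lists, each point 1 gene by its brightest probe set, for female TP minus female vehicle and for male minus female, with red bars for the list medians. Between the sexes 51 of the 67 points lie below 0, the lowest being Uhrf1 at -0.38 and Smug1 at -0.36, and no gene passed the test in either panel.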

How the data were processed

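Whole-brain RNA was measured on 6 arrays, and the deposited table holds log2 expression values of 45101 probe sets, which the authors made with RMA, per the submitters' processing notes, with no version named there. Probe sets were named through the platform annotation, and the 34945 with 1 gene symbol (18193 genes) were analysed, while 932 with several symbols were left out. Differences were fitted on all of them with lmFit and eBayes of limma 3.58.1 (R 4.3.3, two-sided), with Benjamini-Hochberg adjustment over all 34945 and a threshold of 0.05, and adjusted p-values come from these fits, or from alternatives where named. Females were compared on their 4 arrays, and treatment and sex in an additive model on all 6. The TP effect in males was set against that in females in a model with 4 groups. The single male arrays were compared as values, without a test.

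The scripts were tested on simulated data. The members and lists were chosen with earlier results of these data known. The text names every member, describes the brightest probe set of each on every array, and names from each partner list up to the 2 highest and 2 lowest genes of a comparison. Dim probe sets (below the 40th percentile) were kept. Precision is set by the small number of arrays. Alternatives were other probe set summaries, a filter on dim probe sets, quantile normalization or median centring again, an intensity trend, a replicate block and leaving out arrays. Promoter windows came from RefSeq, GRCm38.p6. Tables and figures were made in Python 3.11.15 using matplotlib 3.10.9 and pandas 2.3.3.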

Additional observations from a re-analysis of the deposited data

How the results depend on the processing

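No member passed the threshold in any of the 50 alternative fits, in which the smallest adjusted p of a member by limma was 0.194. The number of all single-gene probe sets past the threshold did depend on the settings. In females it was 2, and it was 5 with the brightest probe set of each gene, 1 without dim probe sets, 6 after quantile normalization, 8 after median centring, 16 with an intensity trend and 0 to 0 when 1 array was left out, with 1433 to 4415 past an unadjusted p under 0.05 there. Over both sexes it was 0, and it was 38 with an intensity trend, 2 without the male TP array and 2 without the male vehicle array. Between the sexes it was 4, and it was 0 without dim probe sets, 37 with an intensity trend and 14 without the male vehicle array, an alternative chosen after seeing the data. For the TP effect in males against that in females it was 7, and it was 2 with the brightest probe set, 2 with the mean of the probe sets of each gene and 12 with an intensity trend. The labels do not pair the arrays, and the female within-group differences correlated at 0.11 across probe sets. With the replicate number as a block the count was 2 in females, 0 over both sexes, 2 between the sexes and 7 for the difference between TP effects. Of 1206 single values under an alternative, 81 changed sign where the difference was within 1 SE of 0 and 5 where it was beyond. These 5 were Mbd2 1417165_at over both sexes with the mean of its probe sets (0.0029), Tet3 over both sexes without the male TP array and without the male vehicle array (-0.0321 each), and, between the sexes without the male vehicle array, Dnmt3a 1423065_at (-0.0656) and Mbd2 1425803_a_at (0.0232). The cause was not tested.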
